A study of Drosophila melanogaster with 2 samples.

Results

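Divergent gene pairs are neighbouring genes transcribed away from each other from starts that lie close together. The peaks described here are the reproducible Bigmax peaks whose summit, the position of highest enrichment, lay within 500 bp of annotated starts of at least 2 protein-coding genes on opposite strands. Reproducible means kept by the authors at their threshold on the irreproducible discovery rate, a measure of how well peaks rank alike between replicates. Members numbered 377, which is 19.3% of all reproducible peaks and 29.2% (95% Wilson interval 26.8 to 31.8%) of the 1289 whose summit lay within 500 bp of any protein-coding start. The other 912 such peaks are called other promoter peaks, and the remaining 660 reproducible peaks lay outside promoters. The rule used only the position of the summit and the annotation, and no measured level.

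The data are chromatin immunoprecipitation followed by sequencing (ChIP-seq), which maps where a protein sits on DNA, from 2 biological replicates that the labels number 3 and 4, both of 1 group. Each was made from whole embryos of both sexes, aged 0 to 24 h, of a transgenic line carrying Bigmax with a C-terminal GFP tag, and the chromatin was sonicated to 200 to 800 bp. The antibody label names Bigmax, whereas the free text of both samples calls them input controls; the values were used here as peak calls, which is how the file notes describe them. Whole embryos mix all tissues and stages, so many cells with little binding and few cells with much binding cannot be told apart. The signal of a peak is the authors' value in the units of their peak caller, and each list (replicate 3, replicate 4 and both pooled) has its own scale. Read counts are not part of the lists: the depth is unknown, and every interval reflects only how many peaks, pairs or genes were counted.

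Bigmax, the fly relative of Mlx in mammals, is a transcription factor of the basic helix-loop-helix leucine zipper type. It acts as a dimer with Mondo, the E-box CACGTG is the site known for such dimers, and they take part in the response to dietary sugar. In the compact fly genome many housekeeping genes lie in divergent pairs, and their promoters often hold the DNA replication-related element (DRE), whose core is TATCGATA and which is bound by the factor Dref.

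The sequences below carry the elements that the results turn on. Positions are on the dm6 assembly, all on the plus strand and 1-based. The first group holds the hexamer AGGTTA, which reads TAACCT on the opposite strand, at 8 of the strongest member summits. The capitals mark that hexamer on either strand, the canonical E-box and the DRE core. Where the summit window reached an annotated 5′ UTR, 30 bases around the element are shown. Each pair is named with the gene whose start was nearer the summit first.
RpL3 / CG6693, chr3R:11222048-11222148: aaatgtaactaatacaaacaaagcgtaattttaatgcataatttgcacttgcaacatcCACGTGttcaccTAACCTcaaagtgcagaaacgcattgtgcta
ATPsynE / Afti, chr3R:14327075-14327104: acagctgttttaAGGTTAtactgcgctgcc
PRL-1 / EndoGI, chr2L:16257351-16257380: tcatctgcagctTAACCTcaaatttctttg
mRpL48 / CG17660, chr2L:1710483-1710512: cagctggtgataTAACCTgaattggagaat
CG5412 / TFAM, chr3R:20577069-20577098: taaccgtagccaTAACCTtgtttattttgt
ND-23 / spn-E, chr3R:15836901-15837001: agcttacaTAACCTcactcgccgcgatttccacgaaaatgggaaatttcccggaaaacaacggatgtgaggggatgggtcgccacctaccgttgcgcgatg
dpr19 / CG33303, chr2L:10376112-10376141: caagtactgaccTAACCTaacttttggctg
Tim8 / hop, chrX:11368448-11368477: gtgtcgtttataTAACCTcaaaccttagaa
The next 2 are the strongest member summits with the canonical E-box after RpL3, which holds both elements, and were chosen after their values were seen.
sta / inc, chrX:1482957-1482986: aagaaggggctcCACGTGcgacttttcgcc
RpL7 / Ripalpha, chr2L:10201008-10201037: tggcgcgcgtgtCACGTGtgcacgcatttc
The last lines show the DRE core at 4 of the stronger member summits that hold it, and were likewise chosen after their values were seen.
ATPsynE / Afti, chr3R:14327039-14327068: accaatacaacTATCGATAgccgcctgtca
Set / eIF2gamma, chr3R:15263517-15263546: actgcgatgcgTATCGATAgagtgccgccc
mRpL20 / Icmt, chr3L:13017859-13017888: aatgagcatgtTATCGATAaaatatcgatg
CG11980 / CG31100, chr3R:9004006-9004035: aaaacttgtgaTATCGATAttaaatggagg

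The 377 peaks lay at 353 gene pairs, taking for each peak the nearest start on either strand, and these pairs held 705 genes. Function lists are described further on, and a listed gene is one on any of them except the 2 control lists. Of the 20 strongest members, 13 held a listed gene, as did 8 of the 13 with a pooled signal above 1000. Of all members it was 130 of 377 (34.5%), and the lists hold 696 of the 13945 protein-coding genes. No such share is given for other promoter peaks, so nothing is read from these counts about pairs in particular. RpS20, which encodes a protein of the small ribosomal subunit, and CG17271 shared a peak with a signal of 1817 in the pooled list, 1133 in replicate 3 and 724 in replicate 4. Its summit lay 125 bp inside RpS20 and 458 bp upstream of the CG17271 start, and the starts were 333 bp apart. RpL3, a protein of the large subunit, and CG6693 shared a peak of 1598, with 967 in replicate 3 and 652 in replicate 4. The RpL3 summit lay 204 bp inside the gene, and the first sequence above is its window, in which the E-box and TAACCT stand 6 bases apart.

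ATPsynE, a subunit of the mitochondrial ATP synthase, and Afti had 1511 pooled, 822 in replicate 3 and 704 in replicate 4. Its window holds both the hexamer and the DRE core. PRL-1, a protein tyrosine phosphatase, and EndoGI, an inhibitor of endonuclease G, had 1368 pooled, 783 in replicate 3 and 626 in replicate 4. GluProRS, which charges tRNA with glutamate and proline, and AP-1sigma, a clathrin adaptor subunit, had 1319 pooled, 798 in replicate 3 and 562 in replicate 4. Among these pairs the summit lay inside the PRL-1 and GluProRS genes, whereas at ATPsynE it lay between the starts.

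The members above 1000 also included velo, a SUMO protease gene, with Sbds, a ribosome maturation factor (1220), LysRS, the lysyl-tRNA synthetase, with the ubiquitin ligase gene Hecw (1105), and pix, a ribosome recycling factor, with Srp68 of the signal recognition particle (1101). Also among them were mRpL48 of the mitochondrial ribosome with CG17660 (1078), the nucleolar GTPase gene Non1 with l(2)k10201 (1055), CG5412 with TFAM, the mitochondrial transcription factor A (1022), and ND-23 of respiratory complex I with spn-E, a helicase of the piRNA pathway (1011). In each of these 7 further pairs the summit lay inside the transcribed region of the gene named first. Among the weakest members were PIG-L with psidin at 112 and CG14882 with Ttc1 at 111.

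**Figure D1:**
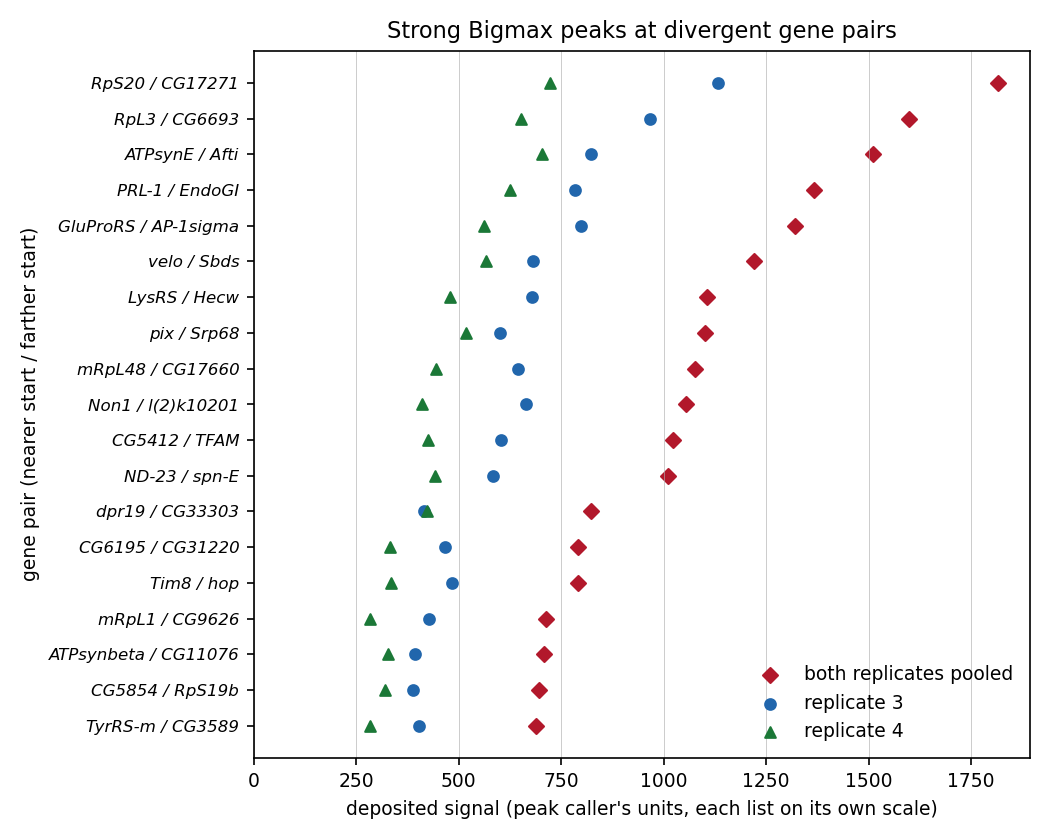
Deposited signal of 19 of the 20 strongest Bigmax peaks at divergent gene pairs (horizontal axis, peak caller's units; each list has its own scale), 1 row per gene pair with the gene of the nearer start first. Diamonds are the pooled list, circles replicate 3 and triangles replicate 4. RpS20 with CG17271 is highest of these in all 3 lists, and replicate 3 has the higher value in 18 of the 19 rows; the exception is dpr19 with CG33303 (416 in replicate 3 and 422 in replicate 4).

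The pairs are a minority of those the annotation holds. Of 2720 pairs of protein-coding genes on opposite strands with starts up to 1000 bp apart, 393 had a reproducible summit within 500 bp of both genes (14.4%). This count takes every pair within reach of a summit and so exceeds the 353 nearest pairs. Of all 13945 protein-coding genes, 11.2% had a reproducible summit within 500 bp of a start, and 5.24% had a member peak. Genes with a partner had a promoter peak in 947 of 5141 cases (18.4%, 17.4 to 19.5%), and genes without a partner in 610 of 8804 (6.93%, 6.42 to 7.48%). A summit at a pair is counted for both genes. Counting only the gene with the nearest start, the shares were 11.5% with a partner (10.6 to 12.4%) and 6.75% without (6.24 to 7.29%). These shares were not tested.

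By chromosome, members made up 21.8% of the promoter peaks on X (36 of 165), 26.1% on arm 2L (66 of 253), 28.9% on 2R (79 of 273), 31.6% on 3R (109 of 345) and 35% on 3L (85 of 243). Chromosome 4 held 2 members among 10 promoter peaks. Of the annotated pairs, 9.02% on X had a peak (37 of 410, 6.62 to 12.2%), against 12.4 to 17.5% on the 4 large autosomal arms. The difference between X and the autosomes was not tested.

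Members had a slightly higher median signal than other promoter peaks. The median signal was 171 in members (quartiles 134 and 259, range 111 to 2180) and 161 in other promoter peaks (quartiles 129 and 258, range 111 to 3685). Relative to the median of all promoter peaks, 164, 206 of 377 members (54.6%) and 438 of 912 other promoter peaks (48.0%) lay above it, with an odds ratio of 1.30 (two-sided Fisher's exact test, p = 0.0322). The same test on the values of replicate 4 gave 56.5% of members and 47.3% of other promoter peaks (Fisher's exact p = 0.00326), and on those of replicate 3 it gave 52.5% and 49.0% (Fisher's exact p = 0.270). Peaks at 1 locus are not independent, so these p-values are too small. Divided at the upper quartile in place of the median, the shares differed by -0.0663 percentage points (Fisher's exact p = 1), and without ribosomal protein promoters the difference fell to 3.86 percentage points (Fisher's exact p = 0.251).

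Above a signal of 1000 were 13 members (3.45%, 2.03 to 5.81%) and 48 other promoter peaks (5.26%, 3.99 to 6.91%), and the intervals overlap. Among the 20 strongest reproducible peaks, 2 of the 17 at promoters were members. The share of members among promoter peaks was 20% at ranks 21 to 100, 29.2% at ranks 101 to 200 and 36.5% at ranks 201 to 400 (50 of 137, 28.9 to 44.8%). It was 33.7% at ranks 401 to 800 and 27.5% from rank 801 to the end of the list (207 of 753, 24.4 to 30.8%). The share was highest at ranks 201 to 400, and its interval overlaps those of the ranks below. Further down the pooled list, 1418 of the 7887 weak promoter peaks, those sharing no base with a reproducible peak, met the same rule (18%, 17.1 to 18.8%). That interval lies below the one for reproducible promoter peaks.

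**Figure D2:**
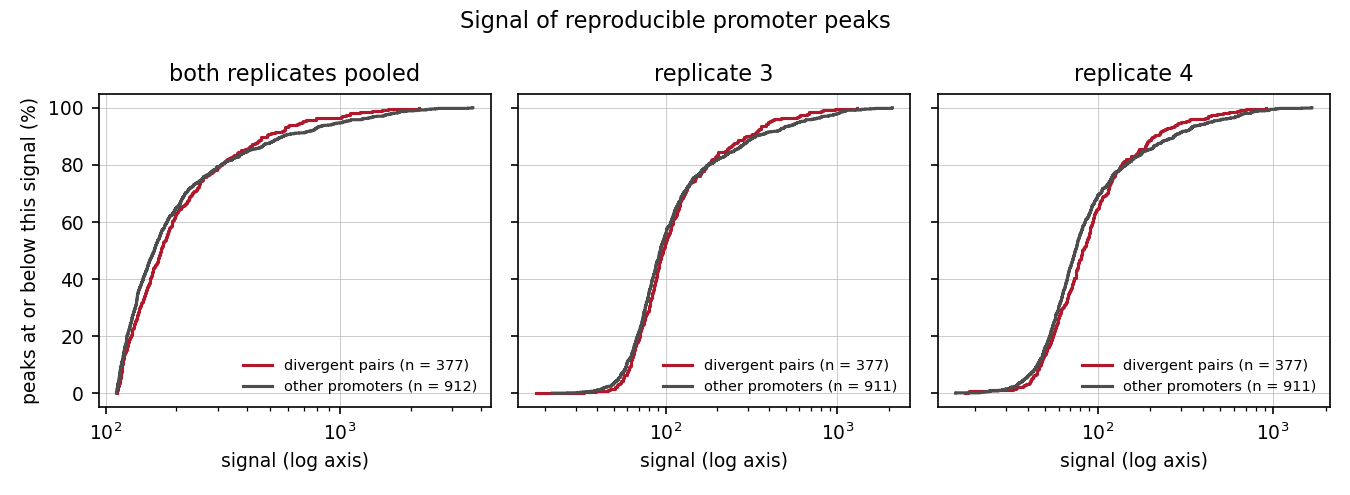
Cumulative share of peaks (vertical axis, percent) at or below a signal (horizontal log axis, peak caller's units) for members at divergent pairs and other promoter peaks, in the pooled list and in each replicate. The member curve lies to the right below the upper quartile (pooled median 171 against 161) and to the left above it, where 3.45% of members and 5.26% of other promoter peaks exceed 1000.

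The distances of the summit to the paired starts are given as a description, since the rule used them. The nearer start lay on the plus strand for 193 members and on the minus strand for 184, and no summit was equally far from both. The nearer start was a median of 49 bp away (quartiles 22 and 98 bp) and the farther one 188 bp. For other promoter peaks, the nearest start lay a median of 83.5 bp away (quartiles 34 and 198 bp). Within 50 bp of the nearest start were 51.5% of member summits and 34.6% of other promoter summits. A member needs a second start within 500 bp, which by itself favours a close nearest start, and nothing is read from that difference. The distances to the nearer and the farther start differed by a median of 105 bp. For a summit inside a gene this difference equals the spacing. In 98 members (26%) they differed by at most 50 bp, and in 122 (32.4%) by more than 200 bp.

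Between the paired starts lay 229 summits (60.7%), inside the plus-strand gene 72 (19.1%) and inside the minus-strand gene 71 (18.8%), where inside means downstream of the start. The other 5 lay at pairs whose transcripts overlap at their 5′ ends. Of all members, 145 summits (38.5%, 33.7 to 43.5%) were downstream of the nearer start, against 403 of 912 (44.2%, 41 to 47.4%) for other promoter peaks. The 143 summits inside a gene had a median signal of 194 pooled, 108 in replicate 3 and 93.2 in replicate 4. The 229 between the starts had medians of 163, 91.3 and 78.0 in the same lists. Other promoter peaks showed the same order, with a pooled median of 173 downstream of the start (n = 403) and 155 upstream (n = 507). For summits between the starts, the nearer start lay at a median of 26.7% of the gap, where the midpoint is 50% and summits spread evenly over the gap would give 25%.

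**Figure D3:**
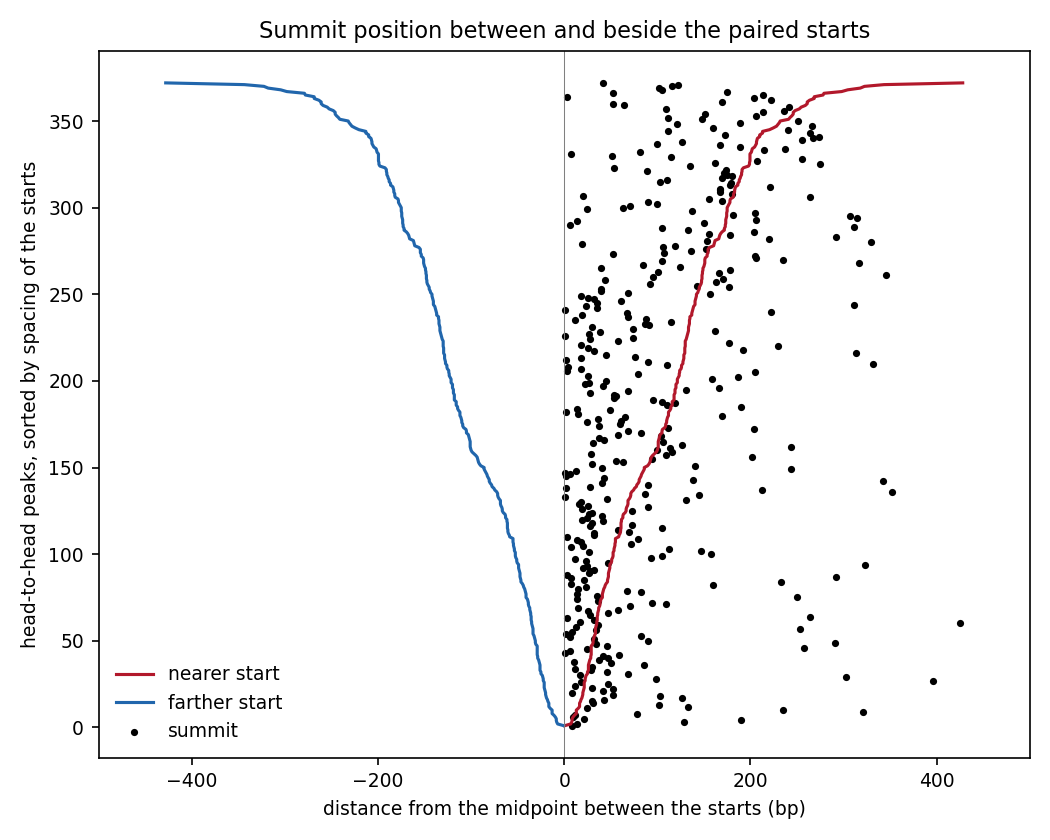
Summit positions of the 372 head-to-head members, 1 row per peak sorted by the spacing of its starts (vertical axis), as the distance in bp from the midpoint between the starts (horizontal axis), each row turned so that the nearer start is on the right. Points left of the red line lie between the starts (229 peaks) and points right of it lie inside the nearer gene (143 peaks).

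The starts of member pairs lay a median of 229 bp apart (quartiles 96 and 321 bp, range -266 to 856 bp, where a negative spacing means overlapping transcripts). The median follows the window of the rule, at 136.5 bp with a window of 250 bp and 297 bp with one of 1000 bp. The widest pairs were CG42784 with CG16956 at 856 bp, app, a palmitoyltransferase gene, with CG32100 at 687 bp, and spidey, an enzyme of steroid and fatty acid metabolism, with dpr14 at 645 bp. The most overlapping were oys with COX7C at -266 bp, the caspase gene Dcp-1 with pita at -238 bp and CG31808 with Cyt-c-d at -234 bp. These 6 peaks were of ordinary strength, between 117 and 176.

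Over head-to-head pairs of the annotation, the 378 with a peak had a median spacing of 205.5 bp and the 2237 without one 325 bp. The share of pairs with a peak was 25.8% at 1 to 100 bp (21.8 to 30.2%), 21.2% at 101 to 200 bp, 18.5% at 201 to 300 bp and 17.5% at 301 to 400 bp. It was 6.61% at 401 to 500 bp and 1.66% at 501 to 1000 bp (0.930 to 2.95%). The stretch in which a summit can be within 500 bp of both starts shrinks as spacing grows, from 950 bp for starts 50 bp apart to 250 bp for starts 750 bp apart. With a summit near either gene, where the eligible stretch grows with spacing instead, the shares were 29.1%, 23.2%, 21.6%, 23.9%, 15.2% and 21.5% in the same order of spacing. Apart from the closest pairs (25 to 33.6%) and those at 401 to 500 bp (11.3 to 20.1%), these shares ran from 21.5 to 23.9%. As the stretch moves with spacing in opposite ways in the 2 counts, neither shows how spacing itself bears on the share. Spacing and signal showed little relation across the 372 head-to-head members (Spearman's rho 0.014, a description), and the median signal per spacing class ran only between 167 and 196.

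**Figure D4:**
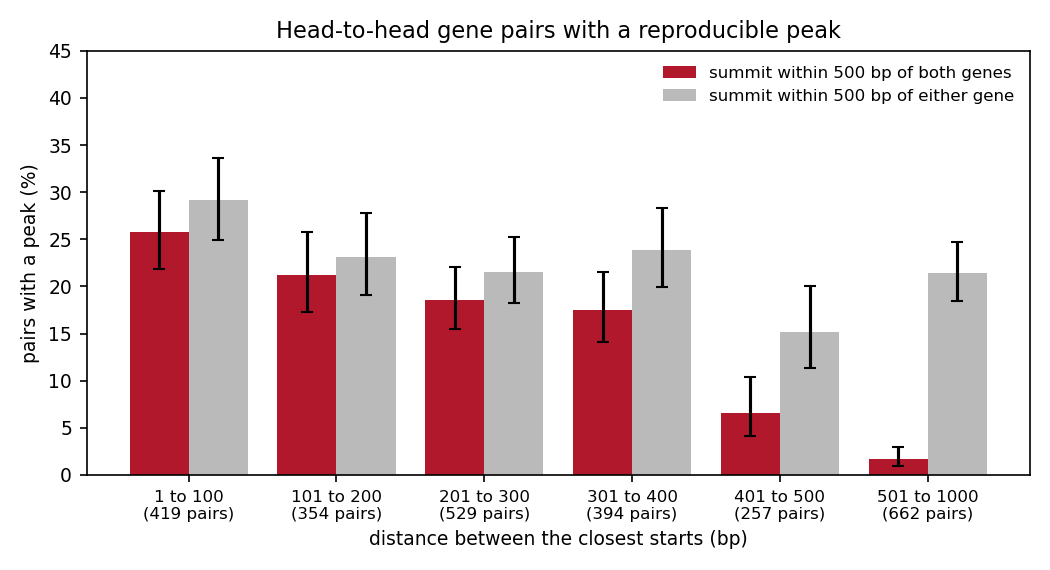
Share of annotated head-to-head gene pairs with a reproducible peak (vertical axis, percent, 95% Wilson intervals) by the distance between the closest starts (horizontal axis, bp). Red bars require a summit within 500 bp of both genes and grey bars within 500 bp of either; at 501 to 1000 bp the shares are 1.66% and 21.5%.

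The replicates placed most member summits at the same start. A partner with 50% reciprocal overlap in both replicate lists was found for 320 of 377 members (84.9%) and 786 of 912 other promoter peaks (86.2%). The difference of -1.30 percentage points did not pass the test (two-sided Fisher's exact p = 0.540). Of the 320 matched members, 257 (80.3%, 75.6 to 84.3%) had partner summits in both replicates nearer the same start as the pooled summit, and in 9 neither replicate did. The share followed the asymmetry of the summit: 48 of 85 (56.5%) where the distances to the starts differed by at most 50 bp, 113 of 136 (83.1%) at 51 to 200 bp and 96 of 99 (97.0%) above 200 bp. The median shift between the pooled summit and its partner was 8 bp in replicate 3 and 19.5 bp in replicate 4, so a near-central summit can change sides within that shift. The pooled list contains both replicates, so this agreement is not independent of them. The signals of the replicates followed each other across the 377 members with Spearman's rho 0.68 and across 910 other promoter peaks with 0.66, given as descriptions.

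At 24 pairs, 2 reproducible peaks lay within reach of both genes, and at 13 of them the summits were nearer different genes. Such peaks could be very uneven or nearly equal. Ssrp, a histone chaperone gene, and CG5543 had a peak of 660 (385 in replicate 3, 288 in replicate 4) 6 bp upstream of Ssrp and one of 112 (59.4 and 71.4) 11 bp upstream of CG5543. Polr3D, an RNA polymerase III subunit gene, and mus304, a DNA damage checkpoint gene, had 667 (396 and 277) inside Polr3D and 171 (99.5 and 95.6) nearer mus304. Rbbp5, a histone methyltransferase complex subunit, and the release factor gene eRF1 were more even, with 249 (136 and 119) nearer Rbbp5 and 271 (169 and 114) nearer eRF1. At most of the 24 pairs the peaks overlapped. At Ssrp with CG5543 and at Polr3D with mus304, both summits were called in the same stretch of DNA. Their values there are thus not those of separate regions, whereas the peaks at Rbbp5 with eRF1 did not overlap. In a few pairs a single replicate peak was the nearest for both summits. Their replicate values are then the same number, as at eIF4EHP with CG18428 (115.2 in replicate 4).

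Members differed from other promoter peaks in the short sequences at the summit. Each of 7 sequences was searched on both strands within 50 bp of the summit, and two-sided Fisher's exact tests with Benjamini-Hochberg adjustment over the 7 called 3 of them (42.9% of those tested). The DRE core TATCGATA was present in 30 members (7.96%, 5.63 to 11.1%) and 35 other promoter peaks (3.84%, 2.77 to 5.29%), with an odds ratio of 2.17 (Fisher's exact, adjusted p = 0.0109). CGATAG, which overlaps TATCGATA where a G follows, was present in 68 members (18%) and 101 other promoter peaks (11.1%), with an odds ratio of 1.77 (Fisher's exact, adjusted p = 0.00738). Both were present in 25 members, so they are not separate results. The GAGA repeat GAGAGAG, the kind of sequence bound by GAGA factor, was present in 3 members (0.796%) and 30 other promoter peaks (3.29%), with an odds ratio of 0.236 (Fisher's exact, adjusted p = 0.0241).

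All 3 calls were lost when only the outermost start of each gene was used (TATCGATA odds ratio 1.78, CGATAG 1.43, both adjusted p = 0.182; GAGAGAG 0.369, adjusted p = 0.338) and among promoter peaks within 150 bp of their nearest start, an alternative chosen after seeing the data (1.60, adjusted p = 0.189; 1.52 and 0.294, both adjusted p = 0.138), in each case by Fisher's exact tests. The direction of all 3 was kept in both. The GAGAGAG call was also lost with a window of 250 bp (odds ratio 0.479, adjusted p = 0.578), with a flank of 25 bp (0.369, adjusted p = 0.446), with 1 summit per merged region (0.267, adjusted p = 0.0537) and in the stronger part of the list (0, adjusted p = 0.0824), by the same Fisher's exact tests. The TATCGATA call was lost in the stronger part of the list (1.79, adjusted p = 0.267) and with a flank of 25 bp (2.13, adjusted p = 0.106), also by Fisher's exact tests. Weak peaks showed the same contrast between pair and other promoters. TATCGATA was present in 6.70% of weak peaks at divergent pairs and 2.33% of weak peaks at other promoters, CGATAG in 16.4% and 6.52%, and GAGAGAG in 1.27% and 4.08%. As a genomic background, TATCGATA was within 50 bp of 5.56% of the outermost starts of all genes and of 4.89% of the midpoints of all head-to-head pairs. For CGATAG these backgrounds were 11.3% and 9.83%, and for GAGAGAG 1.20% and 1.30%. Those of GAGAGAG lay inside the interval of members (0.271 to 2.31%) and below that of other promoter peaks (2.31 to 4.66%). Its contrast thus went with a higher share at other promoter peaks than in the background.

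The DRE sequences were mostly in the shared region: 25 of the 30 TATCGATA members and 55 of the 68 CGATAG members had it between the starts. Members with TATCGATA had a median signal of 159 (89.5 in replicate 3, 69.8 in replicate 4) and those without it 173 (97.9 and 83.6). ATPsynE with Afti, at 1511, was the only member above 1000 with TATCGATA. The next ones outside arm 2R were Set, a histone chaperone gene, with the initiation factor gene eIF2gamma (350, with 198 in replicate 3 and 155 in replicate 4), mRpL20 of the mitochondrial ribosome with Icmt, a protein methyltransferase gene (265, with 149 and 138), and CG11980 with CG31100 (250). Dref, the gene of the DRE-binding factor itself, forms a divergent pair with RpL13, with starts 101 bp apart and a peak of 328 (177 in replicate 3 and 155 in replicate 4), 3 bp upstream of RpL13. That pair is named after its values were seen.

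AGGTTA and CACGTG were known from earlier results of these data to be frequent at reproducible peaks as a whole. The contrast of AGGTTA with weak peaks and its relation to signal are therefore not independent results. AGGTTA did not follow the pattern of the DRE sequences. It was present in 47 members (12.5%, 9.51 to 16.2%) and 151 other promoter peaks (16.6%, 14.3 to 19.1%), a difference that did not pass the test (odds ratio 0.718, Fisher's exact, adjusted p = 0.130). It passed the same Fisher's exact test, with a lower share in members, in 3 alternatives: a window of 250 bp (0.466, adjusted p = 0.0153), a flank of 100 bp (0.700, adjusted p = 0.0321) and only peaks matched in both replicates (0.640, adjusted p = 0.0454). In weak peaks it was rare, at 2.68% at divergent pairs and 2.83% at other promoters. Members with it had a median signal of 326 (199 in replicate 3, 133 in replicate 4), and members without it 166 (91.7 and 80.1). Other promoter peaks had medians of 317 with it and 151 without. It was present in 16 of the 38 strongest members (42.1%), in 15 of the 75 ranked 39 to 113 (20%) and in 16 of the remaining 264 (6.06%). TATCGATA was present in 1 of the 38 (2.63%, 0.466 to 13.5%), 6 of the 75 (8%) and 23 of the 264 (8.71%), with overlapping intervals. Of the 47, 19 had AGGTTA between the starts. Read along the strand of the nearer gene, 22 members held AGGTTA, 23 held TAACCT and 2 held both, so neither orientation prevailed.

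The canonical E-box CACGTG was infrequent, in 10 members (2.65%, 1.45 to 4.81%) and 26 other promoter peaks (2.85%, 1.95 to 4.14%; odds ratio 0.929, Fisher's exact, adjusted p = 1). It was within 50 bp of 1.98% of the outermost starts of all genes and of 0.841% of the midpoints of all head-to-head pairs. By rank, it was present in 3 of the 38 strongest members (7.89%, 2.72 to 20.8%). It was in 0 of the 75 ranked 39 to 113 and in 7 of the remaining 264 (2.65%). These shares were not tested. The 5 strongest members with it were RpL3, sta, the gene of ribosomal protein SA, with inc (600), RpL7 with Ripalpha, whose product binds replication protein A (579), CG3594 with the cuticle protein gene Lcp9 (211) and Polr1C with Scox (210). The first 3 are ribosomal protein genes, shown with their sequences above. The other E-box form CAGCTG was in 9.81% of members and 9.43% of other promoter peaks (Fisher's exact, adjusted p = 0.974), and GGTCACAC, the core of a common fly promoter element known as motif 1, in 6.37% and 4.82% (odds ratio 1.34, adjusted p = 0.384). GGTCACAC passed, with a higher share in members, without replicate 4 (2.26, adjusted p = 0.0173) and with a flank of 100 bp (1.74, adjusted p = 0.0107), and CAGCTG with a flank of 100 bp (1.40, adjusted p = 0.0393), by Fisher's exact tests. The median GC content of the 101 bp window was 42.6% in members and 44.6% in other promoter peaks.

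**Figure D5:**
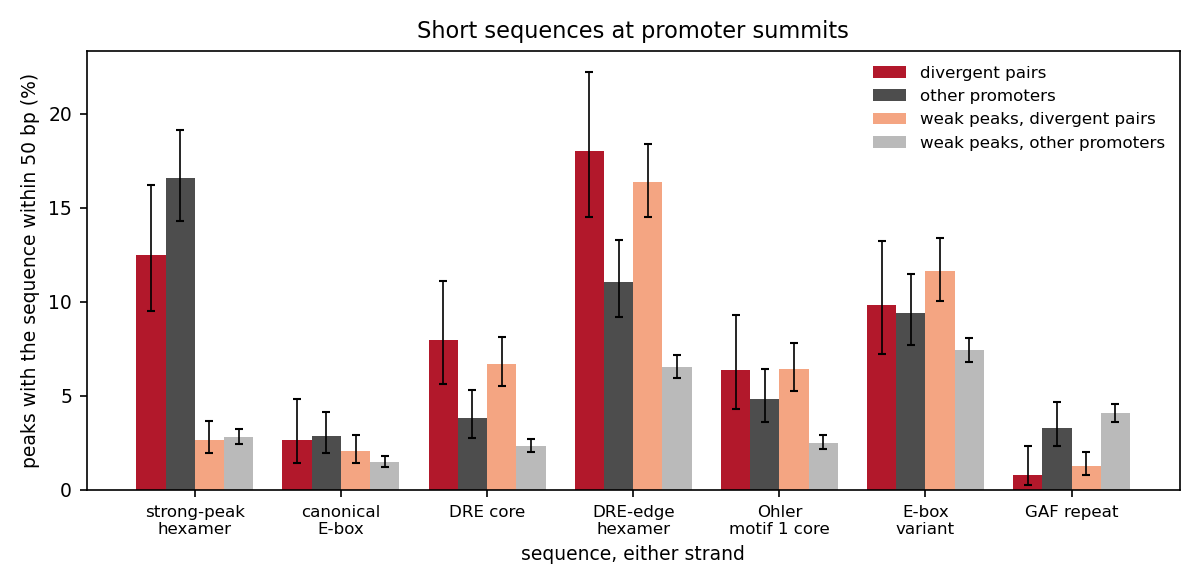
Share of peaks (vertical axis, percent, 95% Wilson intervals) with each of 7 short sequences within 50 bp of the summit on either strand, for members at divergent pairs (n = 377), other promoter peaks (n = 912), weak peaks at divergent pairs (n = 1418) and weak peaks at other promoters (n = 6469). From left to right these are the hexamer AGGTTA, the canonical E-box CACGTG, the DRE core TATCGATA, its neighbour CGATAG, motif 1 with GGTCACAC, the E-box form CAGCTG and the GAGA repeat GAGAGAG. Both DRE sequences are more frequent at pairs among reproducible and weak peaks alike, and AGGTTA is frequent only in the reproducible groups (12.5% and 16.6%, against 2.68% and 2.83%). That AGGTTA is frequent at reproducible peaks was known beforehand from these data.

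By function, members were read against 16 gene lists, 2 of them controls, for which 5.24% of all protein-coding genes is the background. Only a gene with a partner can have a member peak, and 14.2% of all paired genes had one. A list rich in paired genes can thus exceed 5.24% for that reason alone. The highest shares were those of aminoacyl-tRNA synthetases, cytosolic ribosomal proteins, nucleolar genes and the respiratory chain. Of the 93 genes on the cytosolic ribosomal protein list, 28 had a member peak (30.1%, 21.7 to 40.1%), RpLP0-like among them. This is 50% of the 56 that lie in divergent pairs (37.3 to 62.7%). A promoter peak of any kind was at 47 of the 56 paired genes (83.9%, 72.2 to 91.3%) and at 23 of the 37 without a partner (62.2%, 46.1 to 75.9%). Over all genes, the corresponding shares were 18.4% of paired and 6.93% of unpaired genes, and 14.2% of paired genes had a member peak. Besides RpS20 and RpL3 near the top, RpS25 with CG4820 had 581 (359 in replicate 3, 236 in replicate 4) and RpS27 with Nup37, a nuclear pore gene, had 414, while the lowest, RpL34a with Trmt61, had 125. RpS19b, a paralogue of RpS19a, was the farther gene of a peak of 696 that lay 102 bp upstream of CG5854.

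Of 93 genes encoding the respiratory chain or ATP synthase, 22 had a member peak (23.7%, 16.2 to 33.2%), or 44.9% of the 49 in pairs. A promoter peak of any kind was at 25 of the 49 paired genes (37.5 to 64.4%) and at 11 of the 44 without a partner (25%). ATPsynE and ND-23 were named above. ATPsynbeta, the catalytic subunit, with CG11076 had 709 (394 in replicate 3, 328 in replicate 4), and ND-PDSW of complex I with msl-2, a subunit of the male dosage compensation complex, had 604 (339 and 274), its summit 374 bp inside ND-PDSW. For the mitochondrial ribosome the count was 14 of 75 genes (18.7%, 11.5 to 28.9%). This is 23.7% of the 59 in pairs (14.7 to 36.0%), against 14.2% of all paired genes. Its genes included mRpL48 at 1078, mRpL1 with CG9626 at 714, mRpL53 as the farther gene of an AGO1 peak at 525 and mRpS23 as the farther gene of a CenG1A peak at 494. AGO1 encodes an Argonaute protein of the microRNA pathway. Mitochondrial import had 2 of 19 genes, Tim8 with the JAK kinase gene hop at 790 and Tim10 with Ppcdc at 144. The tricarboxylic acid cycle had 3 of 17, mAcon1, the aconitase, with CG43345 at 410, Fum1, a fumarase, at 175 and Idh3g at 192.

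Aminoacyl-tRNA synthetases, which charge tRNAs, had 10 of 33 genes (30.3%, 17.4 to 47.3%), or 43.5% of the 23 in pairs. A promoter peak of any kind was at 11 of the 23 paired genes and at 1 of the 10 without a partner. GluProRS and LysRS led, followed by TyrRS-m with CG3589 at 689 and AspRS with Nmda1 at 573. Translation factors had 10 of 60 (16.7%), led by eRF3 with the splicing factor gene SC35 at 448 (344 in replicate 3, 114 in replicate 4). Nucleolar and RNA processing genes had 7 of 25 (28%), among them Nop56 with mats at 291 and Fib, the fibrillarin gene, with CG3085 at 252. These 3 lists together with the ribosomal ones cover the machinery of protein synthesis, and each lay above the background of 5.24%. Of paired genes alone, 34.5% of 29 translation factors and 36.8% of 19 nucleolar genes had a member peak, against 14.2% of all paired genes. The lists were chosen with earlier results of these data known, so these shares are not independent results. For translation factors and cytosolic ribosomal proteins a share above the background was not particular to pairs. A promoter peak of any kind was at 31 of the 60 and 70 of the 93 genes on these lists, against 11.2% of all genes. Of translation factor genes without a partner, 11 of 31 (35.5%) had one, against 6.93% of all genes without a partner. Mitochondrial ribosomal protein genes had one in 17 of 59 paired cases (28.8%) and 4 of 16 without a partner (25%). For nucleolar genes these counts were 7 of 19 (36.8%) and 2 of 6 (33.3%).

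Among the remaining lists, RNA polymerases, general factors and Mediator had 10 of 88 genes (11.4%, 6.29 to 19.7%), with Polr3D at 667, Cdk9, the elongation kinase, as the farther gene of a bonsai peak at 420, and Spt7 and Polr3C as the farther genes of a CG15814 peak at 258 and a CG5961 peak at 243. The vacuolar ATPase had 5 of 33, of which Vha55 was the nearer gene of its peak, at 174. VhaM9.7-b, Vha36-1 and Vha44 were the farther genes of peaks nearer COX8 (461), CG8187 (176) and Hmgs (169). Splicing had 5 of 39, or 14.7% of the 34 in pairs (6.45 to 30.1%). These included SmE at 204, SmD3 at 198, SmD1 at 195 and U2af38 as the farther gene of a Stip1 peak at 172. DNA replication and repair had 4 of 56 (7.14%, 2.81 to 17.0%), with Irbp and Top3beta as the farther genes of an mgr peak at 406 and a wuho peak at 150, mei-41, the ATR kinase, at 118 and dpa, a subunit of the MCM helicase, at 117. The proteasome and chaperonin list had 0 of 56 member genes, which allows a share of up to 6.42% by the Wilson interval, although 33 of its genes lie in pairs and 8 had other promoter peaks. In the Max network and sugar sensing list, which includes Bigmax's own family, 1 of 9 genes was a member. A promoter peak of any kind was at 4 of the 9, against 11.2% of all genes, and at 3 of the 5 in pairs. The member, Max, was the farther gene of a peak of 116 (66.7 in replicate 3, 41.8 in replicate 4). That peak lay 49 bp upstream of Mettl5, a ribosomal RNA methyltransferase gene. Of the control lists, chemoreceptors had 1 of 180 genes, Gr63a as the farther gene of Lamtor4 (120), and cuticle proteins 1 of 121, Lcp9.

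A listed gene was present in 130 members (34.5%, 29.9 to 39.4%), and these had a median signal of 218 against 155 in the other 247. In 7 members both genes were listed. Among them were COX8 with VhaM9.7-b (461), bonsai, a mitochondrial ribosomal protein gene, with Cdk9 (420), RpL28 with the initiation factor gene eIF1 (237), Fum1 with ND-ASHI (175), ATPsynD with mRpL55 (173) and the kinase gene RIOK2 with GlnRS (171). The annotation holds 17 such pairs, of which 7 had a peak (41.2%, 21.6 to 64.0%). Pairs with 1 listed gene had a peak in 113 of 432 cases (26.2%, 22.2 to 30.5%) and pairs with none in 273 of 2271 (12%, 10.7 to 13.4%).

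Where 1 of the genes was listed, the summit was nearer to it in 81 of 123 members (65.9%, 57.1 to 73.6%). The partner summits gave 70 of 106 (66%) in replicate 3 and 63 of 96 (65.6%) in replicate 4. At ribosomal protein genes the summit was nearer the listed gene in 27 of 31 members (87.1%, 71.1 to 94.9%), and at all other listed genes in 54 of 92 (58.7%, 48.5 to 68.2%), an interval that includes 50%. The 4 ribosomal exceptions were the peaks nearer CG5854, MESR4, 14-3-3zeta and CG8132.

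The boundary of 500 bp cuts through a continuum. The members farthest from their second start were CG11076 with ATPsynbeta at 496 bp (signal 170), Pex3 with CG32147 at 494 bp (113) and sta with inc at 494 bp (600). Just beyond it lay Tsp42Ee with Tsp42Ed at 503 bp (186), E(bx) with mthl14 at 506 bp (169) and mRpS30 with Paf-AHalpha at 510 bp (1093), which count as other promoter peaks. In 17 members more than 2 genes had a start within 500 bp of the summit, and the most crowded summit had 10.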

How the data were processed

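According to the notes deposited with the files, reads aligned to dm6 were used to call relaxed peaks per replicate and for both pooled, against a control alignment that was not analysed here. Pooled peaks were then kept by their irreproducible discovery rate; the caller is not given in the sources used here. The signal of each peak is the authors' deposited value in the caller's units. Each relaxed list holds 30000 peaks, and the reproducible peaks are the strongest of the pooled list. Starts came from Ensembl release 115 (gene models 6.54), giving 19607 starts of 13945 protein-coding genes on X, 4 and the arms of chromosomes 2 and 3, and sequence from the Release 6 genome, the same assembly as dm6. A replicate value is that of the peak sharing at least 1 base with the nearest summit. Shares were compared with two-sided Fisher's exact tests (scipy 1.17.1, threshold 0.05), tested on simulated data; all other values are descriptions. Members, gene lists and the sequences AGGTTA and CACGTG were chosen with earlier results of these data known. Genes were named by rule: the 20 strongest members, up to 4 per list, pairs with both genes listed, the 5 strongest members with CACGTG, the extremes of spacing and the 3 weakest; others are said to be chosen after seeing values; a few named by rule are not reported. Of the list symbols, 12 matched no gene. Alternatives were other windows, start sets, thresholds, overlaps and motif flanks, the stronger 974 peaks, and, for leaving out a replicate, equally many strongest peaks of the other replicate alone.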

Additional observations from a re-analysis of the deposited data

How the results depend on the processing

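Of 119 alternative values with a test, 78 kept their direction and their side of the threshold; of 50 without one, 38 stayed inside the Wilson interval of the share reported, within 1 SD of the spacing across member pairs or close to the number of sequences called. The excess of members above the median signal, 6.62 percentage points, was lost with a window of 250 bp (0), without ribosomal protein promoters (3.86) and among peaks matched in both replicates (5.28), and turned in the stronger part of the list (-4.83) and at the upper quartile (-0.0663); with each replicate left out in turn it ran from 2.61 (without replicate 4, p = 0.427 by Fisher's exact test) to 7.46. The excess was larger with a window of 1000 bp (8.14, Fisher's exact p = 0.00251). It was also larger among promoter peaks within 150 bp of their nearest start (9.95, Fisher's exact p = 0.00358), an alternative chosen after seeing the data. The difference in replicate matching, -1.30 points, turned at 250 bp (0.632) and with 1 shared base (0.219). The number of sequences called, 3, became 0 with outermost starts, 0 within 150 bp of a start, 1 in the stronger part of the list, 1 with a flank of 25 bp and 6 with a flank of 100 bp, and ran from 3 to 4 with each replicate left out. Odds ratios of uncalled sequences changed sides of 1: CACGTG to 1.39 (window of 1000 bp), 1.33 (stronger part), 1.07 (merged regions), 1.15 (flank of 100 bp), 1.11 (within 150 bp) and 1.11 (upstream summits only, an alternative added after seeing the data), and from 0.808 to 1.21 with each replicate left out; CAGCTG to 0.732 (1000 bp), 0.863 (stronger part), 0.961 (150 bp) and 0.918 (upstream), and from 0.968 to 1.14 with each replicate left out; GGTCACAC to 0.991 (outermost), 0.920 (25 bp) and 0.960 (150 bp). With windows of 250 bp and 1000 bp, summits downstream of the nearer start made up 31.9% and 49.2%, and replicate agreement on the nearer start 70.5% and 87.3%. In the stronger part of the list, 44.2% of summits were downstream, 7.50% of pairs had a peak and 23.6% of member genes were listed, against 17.2% in the whole. The cause of these changes was not tested. Depth is unknown, all p-values run over peaks and not over embryos, and no paired analysis was possible because there is only 1 group.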

Other observations

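Of all 2720 divergent pairs, 393 had a reproducible summit within 500 bp of both genes. Another 1242 (45.7% of all pairs, 95% Wilson interval 43.8 to 47.5%) had only weak peaks there. The remaining 1085 (39.9% of all pairs, 38.1 to 41.7%) had no peak of the pooled list there. Among pairs without a reproducible summit, those with a weak call thus outnumbered those with none. No matching share for other promoters is given, so nothing is read from these counts.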
